A study of Danio rerio with 6 samples.

Results

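Genes of cilia were compared between whole zebrafish larvae given a morpholino against GJB2 and wild-type larvae. The members were all gene symbols of the deposited table that begin with ift, bbs, dnah, dnai, dnaaf, cfap, tekt, rsph, daw1 or foxj1, after rows of the same symbol were summed, and they numbered 107 of 37685 genes. They comprised 16 intraflagellar transport genes, 8 genes named for the BBSome, 81 motile axoneme genes and 2 foxj1 genes. The GJB2-MO group held 3 libraries, from larvae given the GJB2-MO oligonucleotide as embryos of the AB wild-type strain at the 1-cell stage. The control group held 3 libraries of wild-type AB larvae, and the labels name no injected agent for them. All larvae were collected at 72 hours post fertilization, and RNA was measured by poly-A sequencing of whole larvae. Neither the number of larvae per library nor the clutches behind the libraries are stated in the labels. The p-values therefore rest on differences among the 6 libraries alone, some of which may be technical.

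The antisense oligonucleotide defines the groups compared and is shown for that reason, as the labels give it, with capitals on its only CAT, the reverse complement of ATG.
GJB2-MO: taaagtgctccccaactCATcctgt

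Cilia are built and kept by intraflagellar transport. In it, the IFT-A and IFT-B complexes travel together, with kinesin to the tip and with dynein back to the base. The BBSome carries membrane proteins along the same route. Motile cilia add dynein arms, radial spokes, a central apparatus and proteins inside the doublet microtubules, and the transcription factor Foxj1 switches on many of these genes. In a zebrafish larva, motile cilia beat in the nose, the pronephros, the brain ventricles and the central canal, while photoreceptors, olfactory neurons and other cells carry cilia that depend on transport genes. The kinocilium is the single true cilium of a hair cell and orients its bundle. RNA of whole larvae does not place a transcript in any of these cells, and fewer cells of a type and less RNA per cell cannot be told apart.

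Libraries held between 15720292 and 19743658 counts in GJB2-MO larvae and between 14582030 and 16725570 counts in controls. Over all genes tested, 1378 of 22247 passed an adjusted p under 0.05 (edgeR quasi-likelihood test, Benjamini-Hochberg adjustment over all genes), 641 higher and 737 lower in GJB2-MO larvae, and the median log2 fold change was 0.0088. Fold changes are GJB2-MO over control. Of the 107 cilia genes, 91 passed the filter on low counts. The 16 that did not held between 4 and 55 counts over the 6 libraries together. They were bbs4, bbs10, dnaaf3, dnaaf6, dnai1.1, dnai2a, dnai4, cfap68, cfap73, cfap90, cfap119, cfap144, cfap161, cfap20dc, cfap97d2 and cfap299. Among these, cfap299, dnai1.1 and dnai2a had 7, 5 and 4 counts, so no difference was detectable at this depth.

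Transport genes stood at higher levels than motile axoneme genes in both groups. On the TPM scale, which divides by length, the mean level over the 6 libraries had a median of 10.5 TPM over the 16 intraflagellar transport genes, with a range of 3.56 to 22.4. Over the 81 motile axoneme genes the median was 1.07 TPM and the range 0.031 to 45.3. The top of that range held no dynein chain or radial spoke gene. The highest motile members were cfap20, cfap36, the arm assembly gene dnaaf9, and cfap410. Of these, cfap20, cfap36 and cfap410 are known also outside motile cilia. Dynein heavy chain genes were lowest, with a median of 0.511 TPM and a highest level of 1.1 TPM, in dnah9. Tektin genes had a median of 2.23 TPM, radial spoke genes 1.68, dynein arm assembly genes 1.88, dynein intermediate chain genes 0.938 and cfap genes 0.901 TPM.

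**Figure D1:**
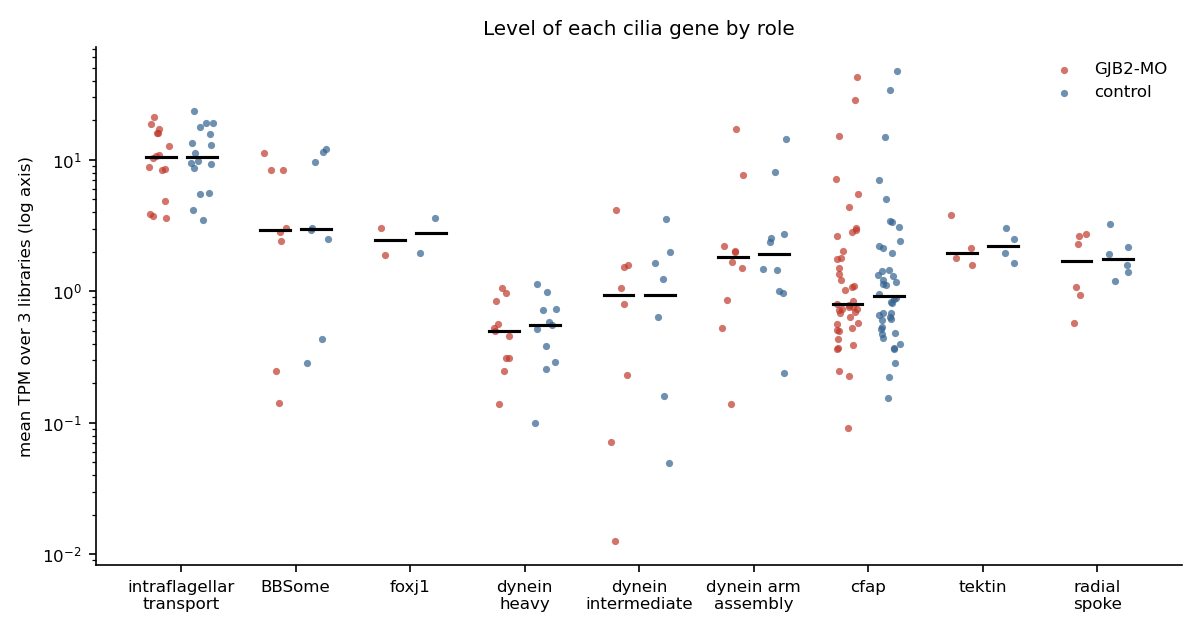
Mean level of each of the 107 cilia genes in TPM on a log axis, by role, with GJB2-MO larvae in red left of controls in blue; each point is a gene's mean over 3 libraries, the sideways scatter has no meaning, and black lines are medians over genes. dnai1.1 and any other gene at 0 in a group is not drawn for that group. Intraflagellar transport genes have a median of 10.4 TPM in GJB2-MO larvae and 10.5 TPM in controls.

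No cilia gene passed the test. Of the 91 tested, 0 were called higher and 0 lower in GJB2-MO larvae with edgeR, where 6.19% of all genes tested were called, 2.88% higher and 3.31% lower. DESeq2 also called 0 of the 91. At an unadjusted p under 0.05, 6 of the 91 stood out in edgeR and 2 in DESeq2, against 21.7% of all genes in edgeR. The 91 genes were measured less tightly than all genes tested. They had a median of 328 counts and a median standard error of 0.23, against 1210 counts and 0.14. These shares are therefore not compared at equal precision. The smallest edgeR adjusted p was 0.140, for tekt3. The fold changes of the 91 genes had a median of -0.09 on the log2 scale and ran from -1.02 to 0.71. They were below 0 in 60 genes and above 0 in 31, and over all genes tested 48.6% were below 0.

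**Figure D2:**
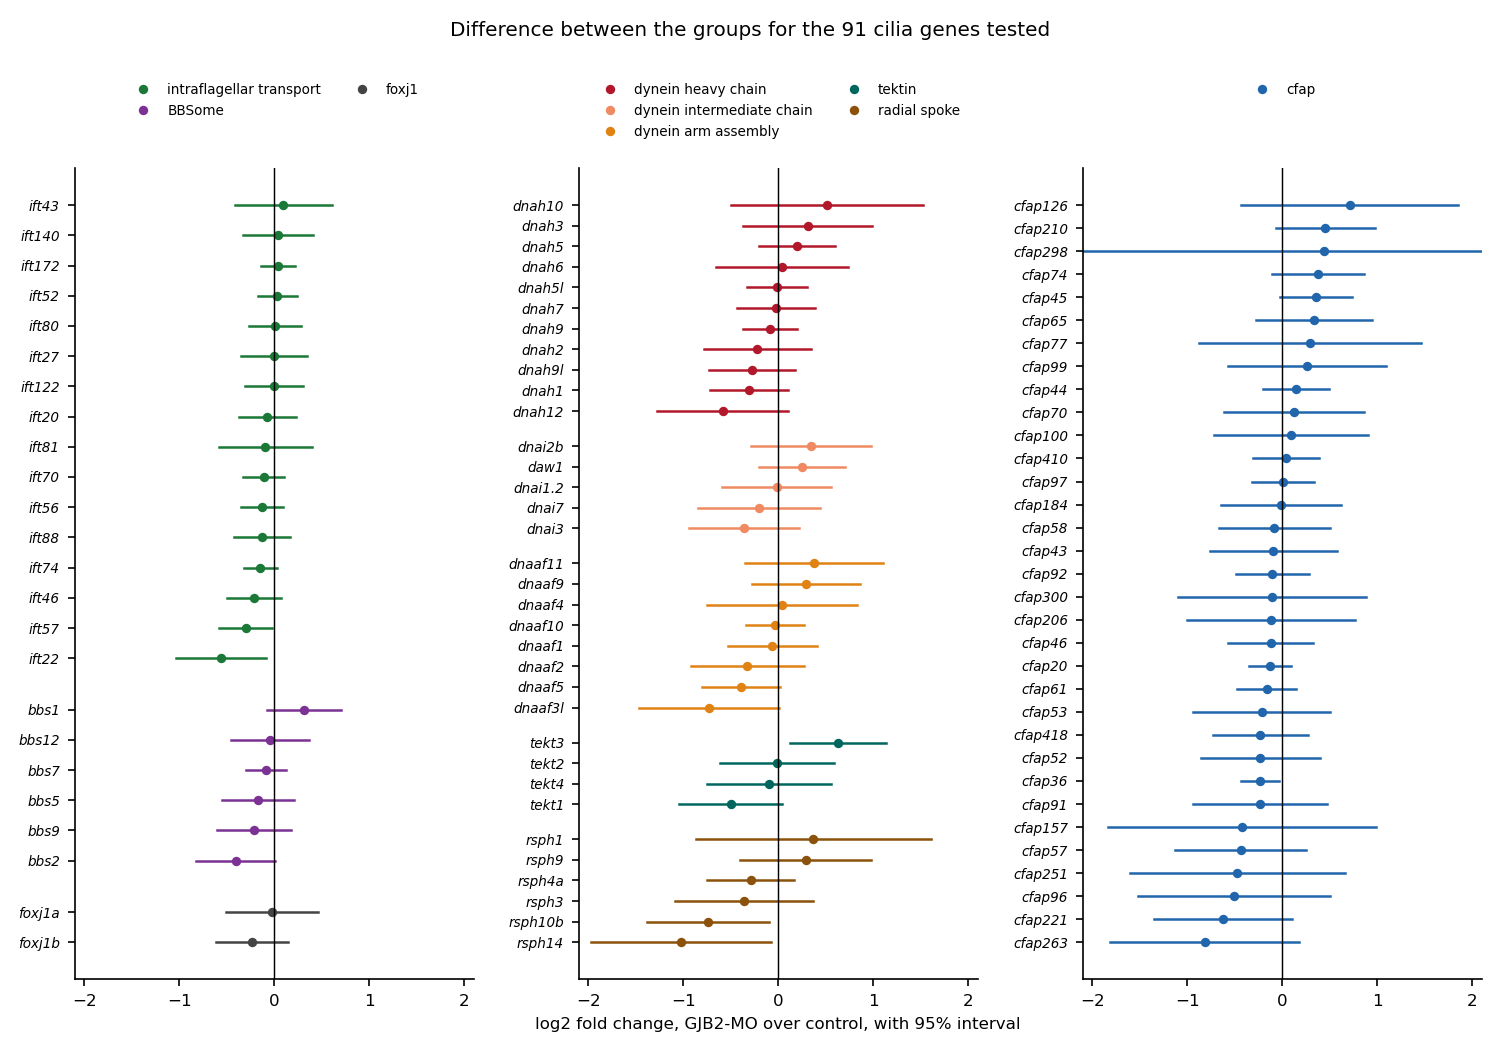
Log2 fold change, GJB2-MO over control, of each of the 91 cilia genes tested, with its unadjusted 95% interval, grouped by role and ordered within each role. Intervals of most genes cross 0; that of cfap298, from -2.98 to 3.85, runs past both edges of the axis.

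The intraflagellar transport genes were measured about as tightly as all genes tested, with median standard errors of 0.13 and 0.14. Of the 16 transport genes, 11 lay below 0 (68.75%, against 48.6% of all genes), with none called. Their log2 fold changes had a median of -0.08 and a range of -0.56 to 0.10, with standard errors between 0.079 and 0.23. For 13 of the 16 (81.25%, against 58.1% of all genes tested) the 95% interval lay wholly inside a 1.5-fold change in either direction. The exceptions were ift22, ift43 and ift81. In 5 of the 16, all GJB2-MO libraries were below all controls in CPM (counts per 1e6 counts after TMM scaling), and in 0 all were above, where groups failed to overlap in 14.1% of all genes on the lower side and 13.7% on the higher side.

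ift74 encodes a core IFT-B protein that binds tubulin with Ift81, and it had the highest level of the transport genes. It stood at 37.1, 42.9 and 40.5 CPM in GJB2-MO larvae, against 46.1, 44.2 and 43.0 CPM in controls. The groups did not overlap, but the nearest libraries were 42.9 and 43.0 CPM. The log2 fold change was -0.15 ± 0.08 (SE; edgeR adjusted p = 0.315), with an interval of -0.32 to 0.03. The gene spans chromosome 5, 453821 to 478811, on the plus strand of GRCz11.

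ift22, a Rab-like GTPase gene of IFT-B (chromosome 5, 30702084 to 30704393, minus strand), had the largest difference of the transport genes. It stood at 2.38, 1.98 and 2.27 CPM in GJB2-MO larvae, against 3.18, 3.5 and 3.09 CPM in controls, and the groups did not overlap. These levels rest on 36 to 43 counts per GJB2-MO library and 46 to 58 per control library. The log2 fold change was -0.56 ± 0.22, and it did not pass the test (edgeR adjusted p = 0.156).

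ift57, which encodes a peripheral IFT-B protein (chromosome 2, 42200413 to 42210485, plus strand), showed the same order of groups. Its levels were 9.89, 8.86 and 10.5 CPM in GJB2-MO larvae, against 11.8, 11.2 and 13.1 CPM in controls. All GJB2-MO libraries were below all controls, and the log2 fold change was -0.30 ± 0.13 (edgeR adjusted p = 0.191). ift56 and ift70, also IFT-B genes, were the others without overlap, at -0.13 ± 0.10 and -0.11 ± 0.10.

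Among the remaining transport genes, ift46 lay farthest from 0, at -0.22 ± 0.13 (edgeR adjusted p = 0.373), and its groups overlapped. ift27, a GTPase gene that links IFT-B to the BBSome, had 9.50, 8.39 and 8.00 CPM in GJB2-MO larvae, against 10.4, 7.84 and 7.72 CPM in controls. Its groups overlapped throughout, and its log2 fold change was -0.0034, with an interval of -0.35 to 0.34. ift172, the gene of the largest IFT-B protein, stood at 0.04 ± 0.08 with an interval of -0.14 to 0.21, and ift88, a core IFT-B gene whose loss stops cilium assembly in zebrafish, at -0.13 ± 0.13. ift81 was the most uneven of the transport genes, and its lowest and highest libraries, at 4.79 and 9.61 CPM, were both GJB2-MO libraries. The 3 IFT-A genes ift43, ift122 and ift140 had fold changes between -0.0050 and 0.10, and the 13 IFT-B genes a median of -0.11; this difference between the complexes was not tested.

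Summed over its 16 genes, intraflagellar transport came to 180, 175 and 171 TPM in GJB2-MO larvae, against 185, 188 and 193 TPM in controls. Each GJB2-MO library was below each control, with means of 175 ± 4.34 and 189 ± 4.09 TPM (SD, n = 3 each). The sum is carried by its most abundant members, and no test was made of it.

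**Figure D3:**
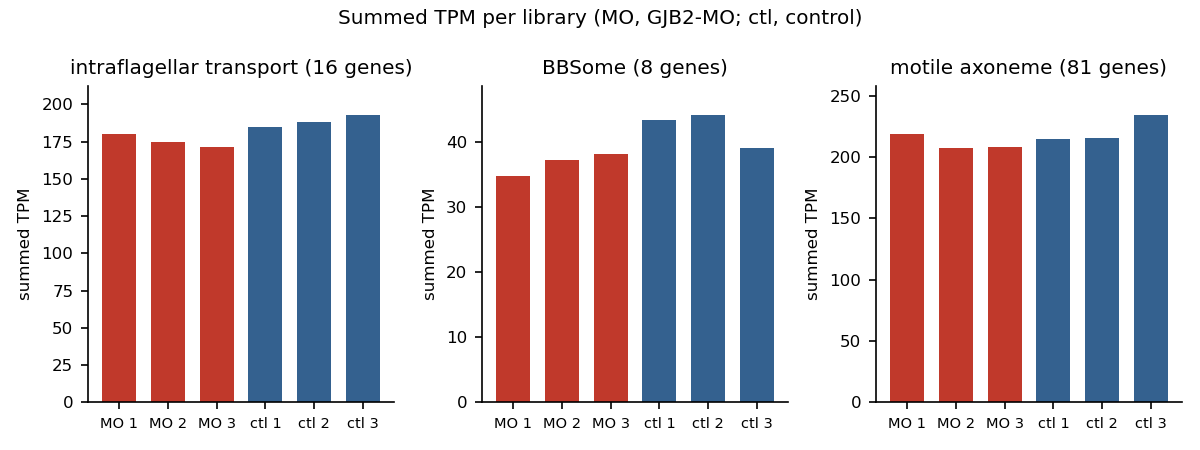
Summed TPM per library for intraflagellar transport, BBSome and motile axoneme genes, with GJB2-MO libraries in red and controls in blue; bars start at 0. The GJB2-MO bars are lower than all control bars for transport (171 to 180 against 185 to 193 TPM) and the BBSome (34.8 to 38.1 against 39.1 to 44.2 TPM), and overlap them for the motile axoneme (208 to 219 against 214 to 235 TPM). No test was made of these sums.

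Of the 8 genes named for the BBSome, 6 were tested and 0 were called; 5 lay below 0. bbs2, which encodes a core subunit (chromosome 18, 17516583 to 17531483, minus strand), had the lowest p. It stood at 9.50, 16.5 and 14.7 CPM in GJB2-MO larvae, against 17.4, 19.2 and 17.3 CPM in controls. The groups did not overlap, but GJB2-MO library 1 lay far below the other two of its group. The log2 fold change was -0.41 ± 0.18 (edgeR adjusted p = 0.243), and -0.20 without that library. bbs7, the most abundant of these genes and a core subunit too, had 18.1, 17.4 and 20.1 CPM in GJB2-MO larvae, against 19.58, 20.01 and 19.42 CPM in controls. Those groups overlapped, and its interval of -0.30 to 0.12 lay inside a 1.5-fold change. bbs1, the subunit gene that lay above 0, stood at 0.31 ± 0.18, and bbs9, a scaffold subunit gene, at -0.21 ± 0.18. bbs12, a chaperonin-like assembly gene, stood at -0.04 ± 0.19. Summed over the 8 genes the level was 36.7 ± 1.68 TPM in GJB2-MO larvae and 42.3 ± 2.73 TPM in controls (SD, n = 3 each). Abundant members carry this sum, among them bbs2, with means of 8.43 TPM in GJB2-MO larvae and 11.4 TPM in controls. No test was made of the sum.

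The transcription factor genes foxj1a and foxj1b did not pass the test. foxj1a, which directs motile ciliogenesis in zebrafish (chromosome 3, 60716912 to 60733252, plus strand), had 4.36, 4.95 and 4.10 CPM in GJB2-MO larvae, against 4.01, 3.62 and 6.0 CPM in controls. Both the lowest and the highest library were controls. Its log2 fold change was -0.02 ± 0.22, with an interval of -0.50 to 0.46. foxj1b, its duplicate (chromosome 12, 20149296 to 20157018, plus strand), had 4.31, 4.64 and 4.98 CPM in GJB2-MO larvae, against 4.77, 5.55 and 6.06 CPM in controls. The groups overlapped, and the log2 fold change was -0.24 ± 0.17 (edgeR adjusted p = 0.473).

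Among the 81 motile axoneme genes, 67 were tested and 0 were called. The log2 fold changes had a median of -0.08 and ran from -1.02 to 0.71; 42 lay below 0 and 25 above. These genes were measured less tightly than transport genes. The tested ones held a median of 228 counts over the 6 libraries, against 1114 for transport genes, and a median standard error of 0.28, against 0.13. The 95% interval lay inside a 1.5-fold change for 13 of the 67, against 58.1% of all genes tested, so for most motile genes a 1.5-fold change was not excluded at this depth. In 3 of the 67 all GJB2-MO libraries were above all controls (4.48%, against 13.7% of all genes tested), and in 9 all were below (13.4%, against 14.1% of all genes).

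**Figure D4:**
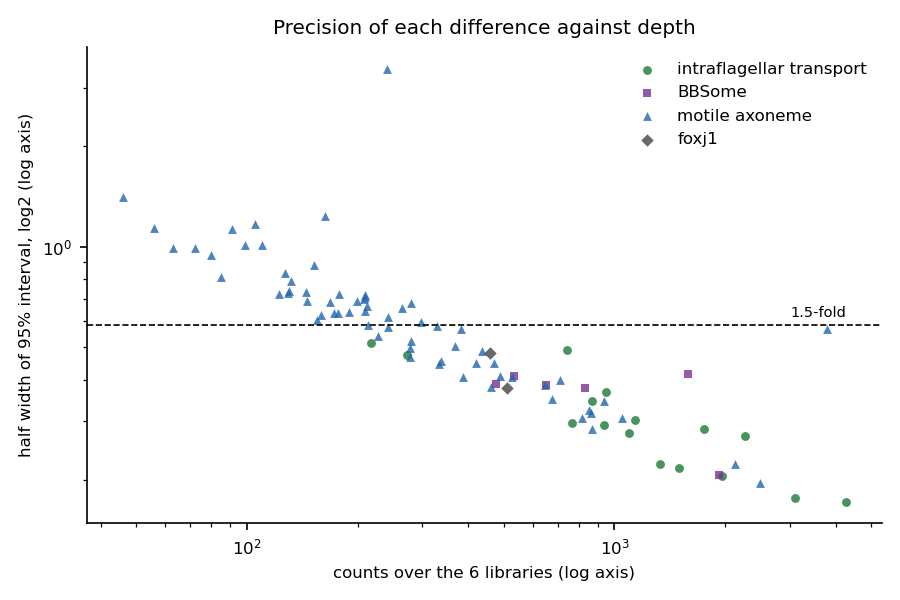
Distance from the log2 fold change to the bound of its 95% interval, against the counts of the gene over the 6 libraries, both on log axes; the dashed line marks a 1.5-fold change. Genes with more counts have narrower intervals, and cfap298 lies far above genes of like counts.

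Dynein heavy chain genes, which encode the motor subunits of the arms, were tested in all 11 members. Their fold changes lay between -0.59 and 0.51 on the log2 scale. Groups failed to overlap in 0 of the 11, against 14.1% of all genes on the lower side and 13.7% on the higher side. The 11 genes were measured less tightly than all genes tested, with median standard errors of 0.20 and 0.14. dnah9, an outer arm gene, had 8.62, 7.92 and 8.51 CPM in GJB2-MO larvae, against 8.24, 9.04 and 9.26 CPM in controls. dnah5l, a relative of the outer arm gene dnah5, had 9.12, 7.30 and 9.14 CPM in GJB2-MO larvae, against 7.89, 8.74 and 9.09 CPM in controls. In both genes the groups overlapped and the interval lay inside a 1.5-fold change, with fold changes of -0.08 ± 0.13 and -0.01 ± 0.14. The inner arm genes dnah12 and dnah1 stood at -0.59 ± 0.31 and -0.31 ± 0.19, and dnah9l, a relative of dnah9, at -0.28 ± 0.20. Related heavy chain genes can share reads, so single members are uncertain to that extent.

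Of the dynein intermediate chain genes and daw1, 5 of 8 were tested. daw1, which encodes a factor needed to deliver outer arm dynein (chromosome 18, 46382498 to 46394082, plus strand), had 5.64, 3.86 and 4.03 CPM in GJB2-MO larvae, against 4.08, 3.5 and 3.80 CPM in controls. GJB2-MO library 1 was the highest and the other libraries lay close together. The log2 fold change was 0.25 ± 0.21 (edgeR adjusted p = 0.529), and 0.057 without that library. dnai3, an inner arm gene, stood at -0.36 ± 0.26, and dnai2b, an outer arm gene, at 0.34 ± 0.29.

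Dynein arm assembly genes encode cytoplasmic factors that fold and join the arms before they enter the cilium, and 8 of 10 were tested. dnaaf3l had 0.663, 1.2 and 1.07 CPM in GJB2-MO larvae, against 1.38, 1.87 and 1.60 CPM in controls, on 12 to 31 counts per library. The groups did not overlap, and the log2 fold change was -0.73 ± 0.34 (edgeR adjusted p = 0.234). dnaaf5 had 3.70, 3.18 and 3.09 CPM in GJB2-MO larvae, against 4.08, 4.64 and 4.39 CPM in controls, also without overlap, and a fold change of -0.40 ± 0.19. dnaaf9, the most abundant of the group, had 43.4, 40.9 and 38.9 CPM in GJB2-MO larvae, against 35.7, 22.9 and 42.3 CPM in controls. Control library 2 was far below the rest, and the interval, from -0.28 to 0.86, was wide for 3796 counts. The log2 fold change was 0.29, and 0.072 without that library. The gene had 2 rows with counts. Its plain-symbol row held 265, 212 and 186 counts in GJB2-MO larvae, against 110, 41 and 182 in controls, at 0.84 ± 0.53. The other row stood at 0.10 ± 0.14. dnaaf10, which also serves a general chaperone complex, stood at -0.03 ± 0.14, and dnaaf2 at -0.33 ± 0.27.

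Of 42 cfap genes 33 were tested, and 20 lay below 0. cfap36, whose protein binds the GTPase Arl3 (chromosome 13, 233378 to 238577, plus strand), had 22.1, 24.1 and 22.1 CPM in GJB2-MO larvae, against 28.4, 27.2 and 24.8 CPM in controls. The groups did not overlap, and the log2 fold change was -0.23 ± 0.09 (edgeR adjusted p = 0.154). cfap20, a gene of the inner junction of the doublet and the cilia gene with the highest TPM, had 19.6, 21.7 and 19.1 CPM in GJB2-MO larvae, against 19.7, 22.6 and 23.8 CPM in controls, with overlap. cfap45 and cfap210, which encode proteins inside the doublet, lay above 0 with no overlap, at 0.35 ± 0.17 and 0.45 ± 0.24. cfap221, a central apparatus gene, lay below 0 with no overlap, at -0.62 ± 0.33, as did cfap263 at -0.82 ± 0.45. cfap298, an assembly gene known in zebrafish as kurly, held 110, 1 and 32 counts in GJB2-MO larvae, against 20, 26 and 51 counts in controls. Its highest and lowest libraries were both GJB2-MO libraries, and the difference was not measurable.

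Tektins form filaments inside the doublet, and the 4 tektin genes did not move one way. tekt3 (chromosome 12, 37327866 to 37343933, minus strand) had 4.92, 4.12 and 4.16 CPM in GJB2-MO larvae, against 3.60, 2.89 and 2.08 CPM in controls. All GJB2-MO libraries were above all controls, and the log2 fold change was 0.63 ± 0.23 with an interval of 0.12 to 1.13 (edgeR adjusted p = 0.140). tekt1 (chromosome 15, 33865313 to 33878283, plus strand) had 1.71, 1.77 and 2.21 CPM in GJB2-MO larvae, against 2.98, 2.29 and 2.79 CPM in controls. It lay the other way, also without overlap, at -0.50 ± 0.25 (edgeR adjusted p = 0.264). tekt2 and tekt4 stood at -0.02 ± 0.27 and -0.09 ± 0.30. Summed over the 4 genes the level was 9.29 ± 0.396 TPM in GJB2-MO larvae and 9.11 ± 0.711 TPM in controls (SD, n = 3 each).

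Radial spokes link the doublets to the central pair, and their 6 genes had the lowest median of the roles, -0.33 on the log2 scale, with 0 called. rsph14 (chromosome 8, 44566702 to 44586984, minus strand) had 7, 13 and 8 counts in GJB2-MO larvae, against 10, 20 and 22 counts in controls. In CPM the groups did not overlap, with 0.677 CPM in the highest GJB2-MO library and 0.692 in the lowest control. The log2 fold change was -1.02 ± 0.43 (edgeR adjusted p = 0.187). rsph10b had 1.55, 0.990 and 1.76 CPM in GJB2-MO larvae, against 2.56, 2.53 and 2.08 CPM in controls, and a fold change of -0.74 ± 0.29 (edgeR adjusted p = 0.163). The difference lay in its second row, with 5, 1 and 10 counts in GJB2-MO larvae, against 21, 16 and 13 counts in controls, while its first row stood at -0.26 ± 0.32. rsph4a, a spoke head gene, had no overlap either at -0.29 ± 0.21. rsph1, another spoke head gene, stood at 0.37 ± 0.54, and control library 2 held 6 of its counts, against 18 to 42 in the other libraries.

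**Figure D5:**
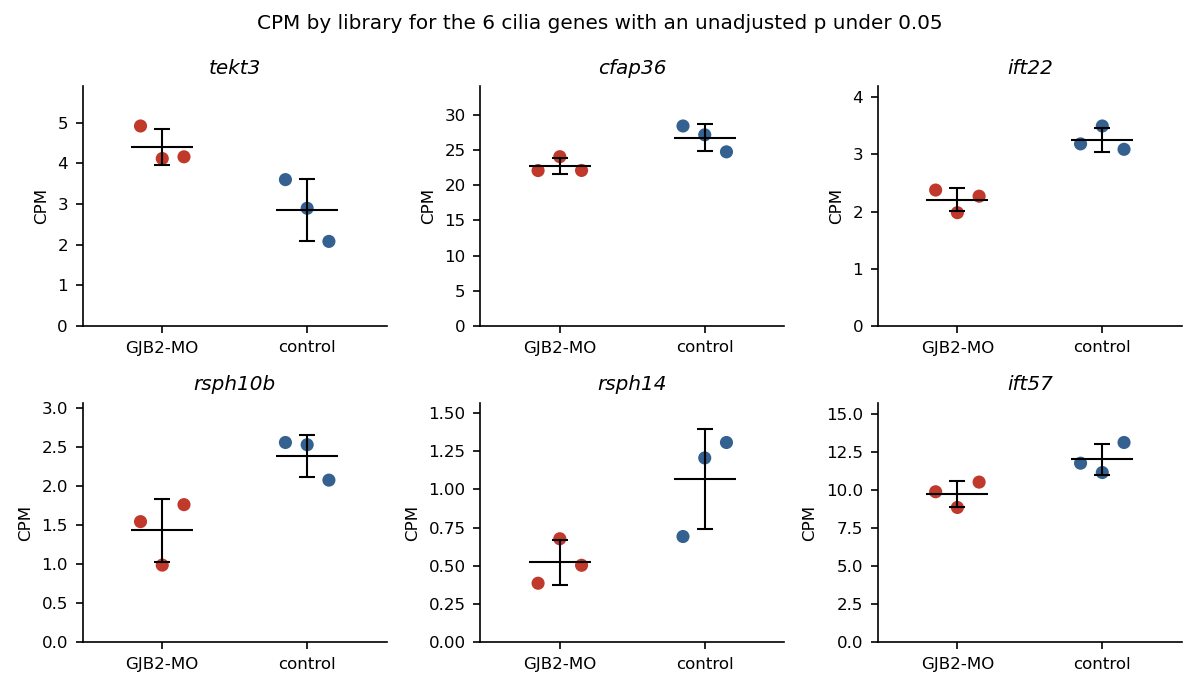
CPM in each library for the 6 cilia genes with an unadjusted p under 0.05, with GJB2-MO larvae in red left of controls in blue; black marks are the mean and SD of 3 libraries, and each axis starts at 0. tekt3 is higher in GJB2-MO larvae and the other genes are lower, with no overlap of groups, and none passed after adjustment.

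Set side by side, transport and motile axoneme members had nearly the same median log2 fold change, -0.083 over 16 genes and -0.085 over 67 genes. The motile median minus the transport median was -0.0013, against an SD of 0.042 for the same difference between libraries of a group. No test of this contrast was made, since members are not replicates. The contrast covers members picked by symbol only. Outside them, the median was -0.21 over 53 other motile axoneme genes tested, a list not cleared of genes known also outside motile cilia. The median was -0.02 over 9 genes of a list of transport genes with other symbols, which also named tubby-like tulp genes. It was -0.05 over 14 genes of kinesin-2 and dynein-2 motors. Summed TPM of motile genes over that of transport genes was 1.22, 1.19 and 1.22 in GJB2-MO larvae, against 1.16, 1.14 and 1.21 in controls. Control library 3 lay above GJB2-MO library 2, so the groups overlapped, and the means were 1.21 ± 0.0162 and 1.17 ± 0.0373 (SD, n = 3 each). Much of the motile sum, which averaged 211 ± 6.35 TPM in GJB2-MO larvae and 221 ± 11.3 TPM in controls, came from 5 genes. These were not the 5 highest, since cfap418 had a mean of 2.22 TPM and dnaaf9, at 15.7 TPM, was not among them. Without cfap20, cfap36, cfap410, cfap418 and dnaaf10, which are known also outside motile cilia, the summed motile level was 115 ± 8.49 TPM in GJB2-MO larvae and 114 ± 9.12 TPM in controls, and the median log2 fold change was -0.084. The ratio of summed TPM of these remaining motile genes to transport genes was 0.687, 0.610 and 0.675 in GJB2-MO larvae, against 0.605, 0.566 and 0.644 in controls, again with overlap, and the means were 0.657 ± 0.0416 and 0.605 ± 0.0391 (SD, n = 3 each).

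The other genes of the pathway, taken from 8 lists, were not called either. Of 160 genes tested, 0 were called higher and 0 lower with edgeR, where 6.19% of all genes were called, and DESeq2 called 0 as well. Their median log2 fold change was -0.11, and 22 had an unadjusted edgeR p under 0.05, a smaller share than the 21.7% of all genes. The list of other motile axoneme genes had 41 of 53 tested genes below 0 and a median of -0.21, and 9 genes had an unadjusted p under 0.05, also a smaller share than that of all genes. Its lowest p belonged to tcte1, a gene of the dynein regulatory complex, at 0.221, 0.208 and 0.378 CPM in GJB2-MO larvae, against 0.830, 0.603 and 0.772 CPM in controls (edgeR adjusted p = 0.118). The groups of tcte1 did not overlap, at levels under 1 CPM. The lists of kinesin-2 and dynein-2 motors, of transport genes with other symbols, of BBSome partners and of the transition zone had medians of -0.05, -0.02, -0.10 and -0.08. The smallest adjusted p of the whole pathway was that of pde6d, which encodes a carrier of lipid-modified cilia proteins, at 3.26, 1.67 and 2.08 CPM in GJB2-MO larvae, against 5.05, 5.12 and 3.74 CPM in controls. The groups did not overlap, and the log2 fold change was -0.99 ± 0.27 (edgeR adjusted p = 0.0525). Among transcription factors of ciliogenesis the median was 0.09, and rfx3, whose protein binds promoters of transport genes, stood at 0.26 ± 0.10 (edgeR adjusted p = 0.155).

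Single genes named from the other lists did not pass the test either. For centriole amplification the median over 5 genes was -0.39, and plk4, the kinase that starts centriole duplication in dividing cells too, stood at -0.39 ± 0.13 (edgeR adjusted p = 0.0965). For polycystins and cilia signalling it was -0.05 over 20 genes, and pkd2l1, the channel gene of neurons that touch the cerebrospinal fluid, stood at 0.41 ± 0.14 (edgeR adjusted p = 0.117). odf2b, a basal body gene, stood at -0.75 ± 0.23 (edgeR adjusted p = 0.0849). dynlrb1, a dynein light chain gene, stood at -0.22 ± 0.09 (edgeR adjusted p = 0.165), and ttc21b, an IFT-A gene, at 0.18 ± 0.10 (edgeR adjusted p = 0.343).

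Markers of ciliated cell types were present in both groups, and none of the listed markers found in the table was at 0 counts. Counts of called markers stand against 6.19% of all genes called, 2.88% higher and 3.31% lower, and single calls in lists of this size are near that background. Hair cell markers summed to 769 to 819 CPM in GJB2-MO larvae and 731 to 762 CPM in controls, and 1 of 23 tested was called, tmprss3a, which rose by 0.65 ± 0.12 on the log2 scale (edgeR adjusted p = 0.0119). Of these 23 markers, 5 lay below 0, against 48.6% of all genes tested, and their median log2 fold change was 0.20. Photoreceptor markers summed to 5773 to 6263 CPM in GJB2-MO larvae and 5935 to 6913 CPM in controls. Of 24 tested, 1 rose and 4 fell. The cone opsin genes opn1mw1 and opn1lw2 fell by 0.59 and 0.34 on the log2 scale, and gnat1, the rod transducin gene, fell by 0.43. grk7a, a cone opsin kinase gene, rose by 0.37 (edgeR adjusted p = 0.0179). Of 11 markers of olfactory neurons 1 was called, stoml3b, which rose. Of these 11, 6 lay below 0, and their median log2 fold change was -0.03. Olfactory markers summed to 168 to 176 CPM in GJB2-MO larvae and 147 to 163 CPM in controls. Of 15 pronephros and 11 floor plate and spinal canal markers 0 were called. Pronephros markers summed to 1197 to 1373 CPM in GJB2-MO larvae and 1116 to 1264 CPM in controls. Floor plate and spinal canal markers summed to 141 to 142 CPM in GJB2-MO larvae and 144 to 171 CPM in controls. The smallest p of the pronephros list was that of trpm7, a cation channel gene, at 79.9 ± 18.3 CPM in GJB2-MO larvae and 51.6 ± 3.25 CPM in controls (SD, n = 3 each; edgeR adjusted p = 0.0920). In the floor plate list it was that of pkd2l1, which lay above 0. That list otherwise went the other way, with 10 of its 11 tested genes below 0 and a median log2 fold change of -0.16. Of 25 cell division genes tested 15 fell and 0 rose, against 3.31% of all genes called lower and 2.88% higher, at a sum of 1448 to 1495 CPM in GJB2-MO larvae and 1747 to 1946 CPM in controls. Among them kif20a, tpx2, top2a and smc4, genes of spindle and chromosome function, fell by 0.56, 0.42, 0.39 and 0.55 on the log2 scale. The part of any of these cell types in the differences of cilia genes was not tested.

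The way the table splits genes into rows touched some members. Of the 107 genes, 36 had more than 1 row, 24 of them with counts in more than 1, and rows other than the one of the plain symbol held 13% of all counts of cilia genes. In 6 members, among them ift88 and rsph1, the row with the plain symbol had no counts and other rows held them all, so coordinates in the table for that symbol do not mark the counted copy. In dnaaf5, dnah12 and ift122 that row held few of the counts, 34 of 387, 11 of 199 and 16 of 1137. Of 97 rows of cilia genes tested as deposited, 0 were called with edgeR, against 8.31% of all rows called. At an unadjusted edgeR p under 0.05 there were 7 such rows. That share was not taken over all rows, and over all summed genes it was 21.7%. The labels do not say whether counting used strand, and 32 members overlap another annotated gene by the coordinates of the plain-symbol row. Other rows were not checked for overlap. dnaaf2, at means of 2.63 CPM in GJB2-MO larvae and 3.30 CPM in controls, overlaps ppp1r21 on the opposite strand. ppp1r21 stood far higher, at 93.9 ± 8.73 CPM in GJB2-MO larvae and 86.7 ± 2.93 CPM in controls (SD, n = 3 each). bbs1, dnaaf3l and dnaaf5 also overlap genes on the opposite strand. By the coordinates of its first row, rsph10b overlaps dlgap5, a mitotic spindle gene on the opposite strand. dlgap5 stood at 24.3 ± 4.57 CPM in GJB2-MO larvae and 26.6 ± 2.81 CPM in controls (SD, n = 3 each). The second row of rsph10b, which held its difference, was not checked for overlap. Nor was the other row of dnaaf5, which stood at -0.40 ± 0.19. Spans ran from gene start to gene end, and overlap of exons was not examined. Whether reads of overlapping partners were mixed was not tested.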

How the data were processed

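RNA of whole larvae was sequenced in 6 libraries, 3 GJB2-MO and 3 control. Per the file headers, the authors deposited read counts per row, not normalized, beside FPKM and TPM. Both FPKM and TPM, as the authors deposited them, are scaled by row length and library size. TPM was used for levels, and FPKM was not used. Per the submitters' processing notes, HISAT2, StringTie 1.3.1 and RSEM were used on GRCz11, with no role or order given. Deposited coordinates were taken as closed intervals counted from 1, which was not checked against a GRCz11 annotation.

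The 53709 rows were summed per symbol after removing a trailing number. Counts were filtered with filterByExpr (min.count 10, min.total.count 15), scaled by TMM and tested with edgeR 4.0.16 in R 4.3.3 (robust quasi-likelihood, no covariate), and p-values were adjusted over all 22247 genes tested by Benjamini-Hochberg. Intervals are 95%, not adjusted for the number of genes. The code was tested on simulated data. Alternatives were DESeq2 1.42.0, RLE scaling, other filters, rows as deposited, a replicate block and leaving out each library. Within groups, libraries differed by more than sampling noise (chi-square per degree of freedom of 8.86 or more).

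Members, lists and tests were chosen with earlier results of these data known. Named genes were, for each role, the 3 with the smallest p and the 2 with the highest TPM, with any called, daw1, foxj1a and foxj1b, the largest rise and fall at a mean of at least 1 CPM, and genes under 10 counts. Of other lists, called genes (up to 4) or the smallest p were named. bbs12, cfap210, cfap263, cfap298, cfap410, tekt2 and ift43, ift46, ift56, ift70, ift81, ift88, ift122, ift140 and ift172 were added after their values were seen. List symbols were matched directly or, for 7, through RefSeq synonyms of GRCz12tu. No outlier check was made, since groups held 3 libraries.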

Additional observations from a re-analysis of the deposited data

How the results depend on the processing

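No cilia gene was called under any of the 12 alternatives planned, and the smallest adjusted p among members was 0.0959, for tekt3 without control library 1. Over the whole table, called genes numbered between 579 and 1070 when 1 library was left out (579, 627, 697 and 715 without control library 2, control library 3, GJB2-MO library 1 and GJB2-MO library 3), and between 1218 and 1596 under the others run on summed genes. With rows as deposited, 2049 of 24652 rows were called, a count of rows and not of genes. The median log2 fold change ranged from -0.11 to -0.072 for transport genes and from -0.111 to -0.047 for motile genes, whose value nearest 0 came without control library 3. Their difference lay between -0.024 and 0.030. Leaving out 5 genes known also outside motile cilia, a choice made after seeing the data, gave 0 calls and a motile median of -0.084.

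Of 396 values of 34 named genes, 381 kept their direction and 15, in 6 genes, did not. Counting sign changes, 70 of the 396 values, in 23 genes, moved by over 1.5 times. With rows as deposited, only the row of the plain symbol stood for each named gene. For dnaaf9 that row was at 0.84, on 996 of 3796 counts, and its other row with counts at 0.10. For rsph10b the plain row was at -0.26 and the second row at -1.76. ift27 was at 0.0041 with min.count 50 and 0.0035 with the replicate block, and foxj1a at 0.0052 with the block. With 1 library left out, the range was -0.095 to 0.029 for dnaaf10, -0.070 to 0.089 for dnah5l, -0.17 to 0.23 for foxj1a, -0.080 to 0.15 for ift27, -0.094 to 0.67 for rsph1 and -0.43 to 0.16 for tekt4.

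Same-numbered libraries did not deviate together (r = -0.029, 0.050 and -0.0021 across genes), so the numbers are not taken as pairs. With the replicate block, 1362 genes and 0 cilia genes were called, with medians of -0.090 and -0.097 for transport and motile genes. Tested motile genes held a median of 228 counts and transport genes 1114, with median standard errors of 0.28 and 0.13; the part of depth in this was not tested.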
